A study of Homo sapiens with 24 samples.

Results

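After 48 h in dimethyl fumarate (DMF), HBL-1 lymphoma cells differed from their 48 h controls in 7735 genes, of which 3884 were higher and 3851 lower. HBL-1 is an established human line of diffuse large B cell lymphoma of the activated B-cell-like kind. The comparison takes 6 of the 24 RNA-seq libraries of the series: 3 from cells given 20 µM DMF dissolved in DMSO and 3 from control cells given DMSO, all collected at 48 h. All cultures were grown in RPMI-1640 with 20% FCS, penicillin and streptomycin, and the antibiotic Plasmocin. The series also sampled both treatments at 6, 12 and 24 h, and the 6 libraries of 24 h served here as the nearest time point. Members were taken by the treatment and time in the labels, and all 21831 genes of the tables were considered. Of these, 12966 passed a filter on low counts and were tested. The study asked how DMF bears on ferroptosis and on signalling through NF-kB and STAT3 in this lymphoma.

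DMF is an ester that modifies reactive cysteines in proteins and depletes glutathione. One such protein is KEAP1, which in untreated cells holds the transcription factor NRF2 for degradation. Freed NRF2 binds antioxidant response elements and drives genes of glutathione, thioredoxin, NADPH, heme and iron metabolism. Ferroptosis is a death by iron-dependent lipid peroxidation, restrained by cystine import through SLC7A11, by glutathione and by the lipid peroxidase GPX4. Lymphomas of the activated B-cell-like kind depend on constant NF-kB activity, which keeps survival genes, cytokines and, through IL-6 and IL-10, the STAT3 pathway switched on.

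From the NRF2 targets higher in DMF, 4 with an antioxidant response element in the promoter were taken, and the stretches around it are shown. They were read from RefSeq promoters (GRCh38.p14, 250 bases before to 50 after each start), written 5′ to 3′ on the strand of the gene. Capitals mark a match to TGACNNNGC on either strand. The GCLM stretch lies at chr1:93909416-93909504 on the minus strand, that of TXNRD1 at chr12:104215640-104215819 on the plus strand, that of PIR at chrX:15493284-15493347 on the minus strand and that of ABCB6 at chr2:219219062-219219150 on the minus strand.
GCLM: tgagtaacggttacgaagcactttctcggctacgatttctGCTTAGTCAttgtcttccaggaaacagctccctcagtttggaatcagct
TXNRD1: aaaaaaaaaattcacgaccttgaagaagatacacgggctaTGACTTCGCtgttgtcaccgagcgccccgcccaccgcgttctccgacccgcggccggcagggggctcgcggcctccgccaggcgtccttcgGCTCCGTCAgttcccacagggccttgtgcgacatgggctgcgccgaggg
PIR: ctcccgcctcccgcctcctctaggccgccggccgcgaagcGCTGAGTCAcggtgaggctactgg
ABCB6: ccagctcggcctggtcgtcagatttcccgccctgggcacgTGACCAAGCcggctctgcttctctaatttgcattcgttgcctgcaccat

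The match lies 34 bases before the start of GCLM, 152 bases before that of ABCB6 and 26 bases after that of PIR, and the first of the 2 matches of TXNRD1 lies 99 bases before its start. Promoters were matched for 9867 of the 12966 genes tested. The element was found in 15.1% of these, in 16.47% of the 3024 matched genes called higher in DMF and in 14.23% of the 2903 called lower. Among the 26 NRF2 targets with a promoter it was found in 8, which is 30.77%. Among the 23 of these called higher it was found in 7, which is 30.43%. Over all 27305 promoters in the RefSeq table it was found in 13.56%. 4 other elements were searched on both strands. TGATGNAAT, of ATF4, was found in 0.45% of the promoters of tested genes, TTCNNGAA, of heat shock factor, in 5.97%, TCACNCCAC, of the sterol regulator SREBP, in 1.21% and GAAANTGAA, of interferon responses, in 1.51%. Among genes called higher and lower the shares were 0.5% and 0.55%, 5.32% and 6.23%, 1.26% and 1.38%, and 1.42% and 1.65%, in the same order. A match of these letters describes the window and was not tested as a binding site.

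The libraries held 28595410, 33384672 and 35146994 counts in the controls and 2870751, 34157349 and 32229416 in DMF, so DMF replicate 1 was far shallower than the rest and detected 13122 genes against 15074 to 15539. In that library 2.87 counts make 1 CPM, and its values for weak genes rest on a few reads. Levels below are counts scaled to library size by TMM (CPM), fold changes are on the log2 scale with their standard error, and adjusted p values are from edgeR's quasi-likelihood test on these 6 libraries with Benjamini-Hochberg adjustment over the genes tested. A gene is called when that value is under 0.05. After a mean level, ± gives the SD over the libraries of the group. The labels do not say whether replicates were separate cultures, so the p values may measure technical spread only. In bulk RNA, fewer cells of a kind and less RNA per cell cannot be told apart.

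By summed level, the markers matched the labelled cell type. All 10 B cell markers were present, with a summed level of 5499 to 5703 TPM in control libraries and 7155 to 7400 TPM in DMF libraries, and the 11 markers of activated B-cell-like lymphoma summed to 2132 to 2342 TPM and 1450 to 1509 TPM. T and NK cell markers summed to 40.92 to 41.61 TPM in controls and 143 to 148 TPM in DMF. Nearly all of this was PRF1, the gene of perforin, while CD3G, CD8B and CD2 were at 0 in all 6 libraries. Of the myeloid markers, S100A8, S100A9, FCGR3A, CD163 and ELANE were at 0, and CD68, a lysosomal membrane gene, went from 2.62 to 9.64 TPM.

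At this time 3884 genes, 30.0% of those tested, were called higher in DMF and 3851 genes, 29.7%, lower. With a change of at least 2-fold as well, 654 genes (5.04%) were higher and 724 genes (5.58%) lower. The median log2 fold change over all genes tested was 0.01. Of the called genes, 2322 higher and 2160 lower ones differed by less than 1.5-fold, and 144 and 148 by 4-fold or more. On log2(TPM + 1) with limma the median moved to 0.18 and the calls split into 5521 higher and 1770 lower, 75.7% higher against 50.2% on counts. After each library's median gene was set to 0, an alternative chosen after this shift was seen, the split was 2974 higher and 3939 lower. The sign of genes and lists near the median can therefore depend on the scale, and lists whose balance of higher and lower members turned are given with both splits.

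**Figure D1:**
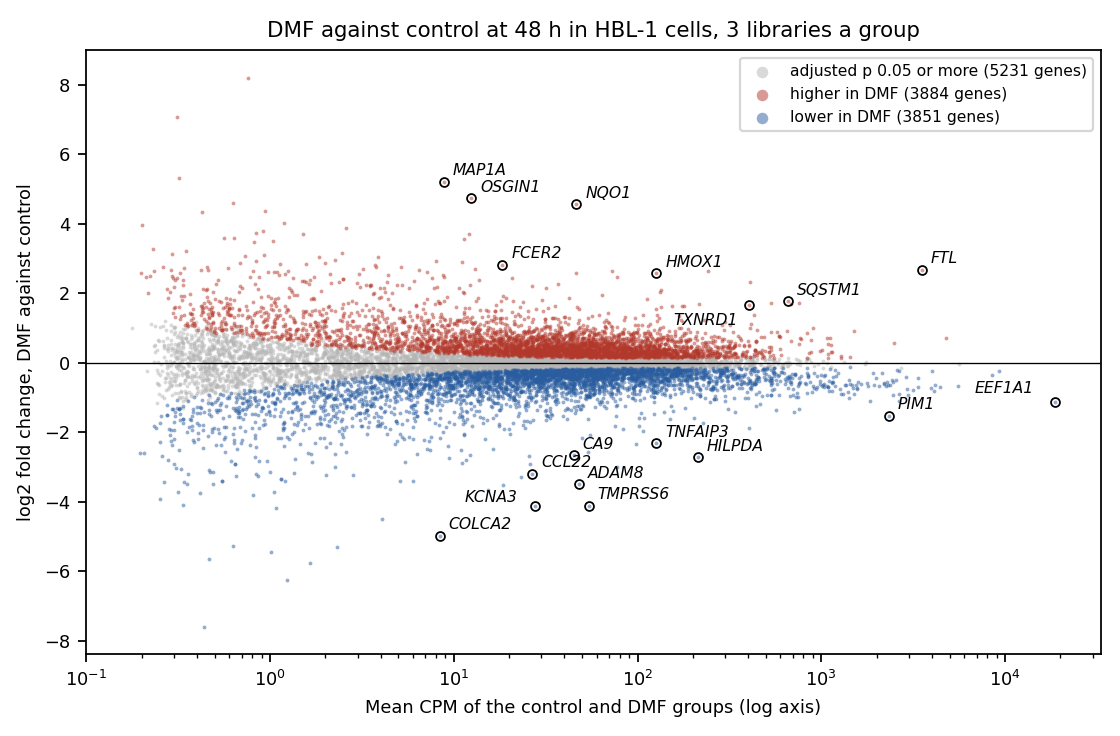
Log2 fold change of DMF against control at 48 h (vertical) against the mean CPM of the 2 groups (horizontal, log axis) for the 12966 genes tested, 1 point a gene, coloured by the edgeR call. The 3884 red and 3851 blue points lie evenly about 0, and the circled genes are ones described in the text.

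NRF2 targets had the largest share of higher members of any list. Of 35 tested, 29 were called higher and 5 lower, against 30.0% and 29.7% of all genes, and their median log2 fold change was 0.99. The 5 lower ones, named after their values were seen, were CBR3, TRIM16L, TRIM16, TKT and ABCC1. OSGIN1, an oxidative stress response gene (chromosome 16, 83948282 to 83966332, GRCh38), stood at 0.727, 0.921 and 1.03 CPM in the controls and at 23.6, 23.1 and 25.2 CPM in DMF. The groups lay far apart, and the log2 fold change was 4.73 ± 0.14 (edgeR adjusted p = 6.22e-14).

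NQO1, which reduces quinones (chromosome 16, 69706996 to 69726951), had 3.85, 4.07 and 3.4 CPM in the controls and 90.5, 89.5 and 87.6 CPM in DMF. Its log2 fold change of 4.56 ± 0.09 was the third largest among genes reaching 5 CPM whose groups did not overlap. HMOX1, the heme oxygenase that frees iron from heme (chromosome 22, 35380361 to 35394214), had 35.3, 37.9 and 36.3 CPM against 206, 226 and 218 CPM, a log2 fold change of 2.58 ± 0.07. The shallow library gave the lowest DMF value of HMOX1 and the highest of NQO1. PIR, an iron-binding nuclear protein, had 3.60, 3.91 and 2.75 CPM against 24.6, 22.3 and 21.2 CPM. ABCB6, a porphyrin transporter, had 47.6, 50.9 and 48.4 CPM against 126, 118 and 122 CPM.

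Cystine import and glutathione synthesis were higher as well. GCLC, the catalytic subunit of the enzyme that starts glutathione synthesis, had 89.4, 86.2 and 88.4 CPM in controls and 273, 273 and 268 CPM in DMF, a log2 fold change of 1.62 ± 0.06. Its partner subunit GCLM had 18.4, 17.5 and 20.0 CPM against 43.2, 44.4 and 44.6 CPM, a log2 fold change of 1.25 ± 0.08. SLC7A11, the cystine importer, had 4.58, 3.59 and 4.10 CPM against 10.97, 8.43 and 8.91 CPM. Every DMF library lay above every control library for these 3 genes, as for 31.0% of all genes tested. GSR, glutathione reductase, had 112, 113 and 113 CPM against 227, 218 and 229.8 CPM.

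The wider glutathione list of 29 tested genes split into 11 higher and 10 lower, shares of 37.9% and 34.5% that are close to those of all genes. Glutathione transferase GSTP1 rose by 1.10 on the log2 scale, whereas GSTZ1, LANCL1, GSTM1 and MGST1, other members chosen after their values were seen, fell by 0.78, 0.66, 0.49 and 0.48. In the thioredoxin list 10 of 21 genes were higher and 5 lower. TXNRD1, the cytosolic thioredoxin reductase, had 198, 185 and 199.6 CPM against 593, 635 and 613 CPM, and SRXN1, which repairs peroxiredoxins, 12.2, 12.2 and 11.2 CPM against 47.5, 53.5 and 54.5 CPM. Both pairs of groups were apart by far more than their spread. The 5 lower members, again named after the fact, were PRDX2, CAT, TXNIP, MSRA and TXN2. CAT, catalase, fell from 29.1 to 14.2 CPM.

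For NADPH supply, TALDO1, the transaldolase of the pentose phosphate pathway, rose by 1.10 ± 0.07. Of the 17 tested genes of the list 4 were higher, among them also NADK and PGLS, and 9 were lower. On log2(TPM + 1) the split was 7 higher and 5 lower, but after centring 3 higher and 9 lower. The mitochondrial NADPH enzymes IDH2 and MTHFD2 fell by 1.60 and 1.02 on the log2 scale.

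Genes that hold iron and those that guard membrane lipids did not move one way. FTL and FTH1, the ferritin chains that store iron, had 959 ± 57.2 and 325 ± 30.4 CPM (SD, n = 3) in controls and 6102 ± 317 and 1050 ± 33.9 CPM in DMF. Both have many processed copies in the genome, so reads could be shared with them. By TPM, a scale per transcript length, FTL was the most abundant of the genes named here in DMF cells at 16190 TPM, from 2140 TPM in controls. In contrast GPX4, which reduces lipid peroxides, had 200.5, 221 and 196 CPM in controls and 137, 131 and 139 CPM in DMF, a log2 fold change of -0.60 ± 0.06.

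Of the 36 tested ferroptosis genes, 18 were higher and 13 lower, on log2(TPM + 1) 18 and 5, and after centring 17 and 13. AIFM2, a suppressor of ferroptosis that reduces coenzyme Q, rose by 1.17 ± 0.09. ALOX5, an enzyme that oxidises arachidonic acid, fell by 1.81 ± 0.10, from 19.7 to 5.53 CPM. FADS2 and FADS1, the desaturases of polyunsaturated fatty acid synthesis, fell by 1.54 and 0.88. ACSL4, which loads such acids into lipids, was called with a small rise of 0.24 ± 0.06. TFRC, the transferrin receptor, was not called at a log2 fold change of -0.14 ± 0.07, which was 0.11 on log2(TPM + 1). TFR2, a second transferrin receptor, fell from 14.1 to 5.82 CPM.

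**Figure D2:**
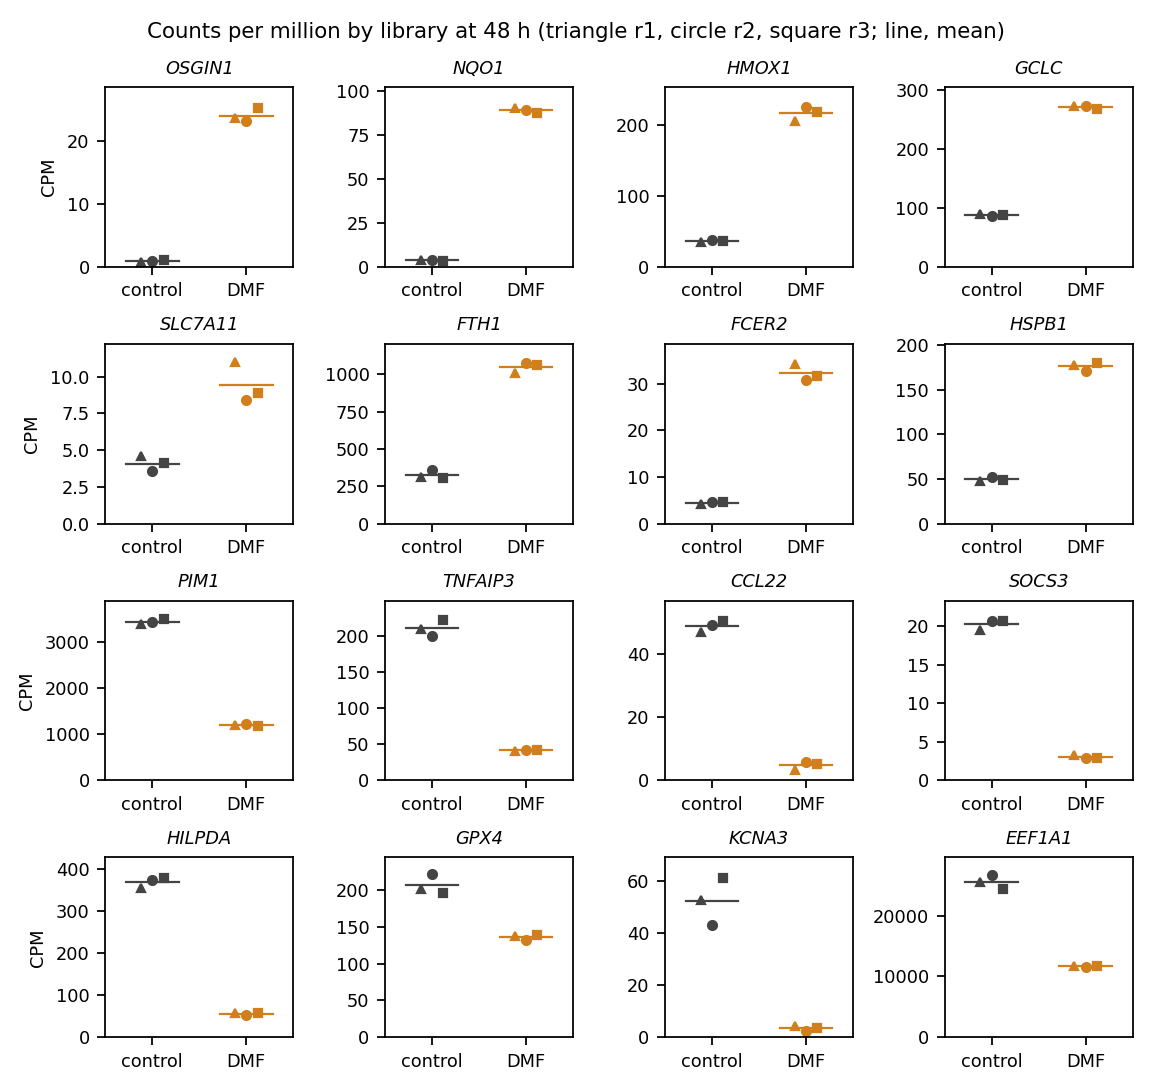
CPM of 16 genes in each control and DMF library at 48 h, with linear axes that start at 0; each symbol is a library and each line a group mean. In all 16 genes, chosen from those named in the text, the 3 DMF libraries lie on one side of the 3 controls, the shallow DMF library (triangle) included. Over all genes tested, DMF lay wholly above in 31.0% and wholly below in 31.3%.

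Chaperone, proteasome and lysosome genes rose together with the antioxidant genes. In the heat shock list 21 of 27 genes were higher and 5 lower, with a median of 0.47. HSPB1, a small heat shock protein, had 48.3, 51.7 and 48.7 CPM against 178, 171 and 180.0 CPM, and HSP90AA1, the inducible HSP90, went from 601 to 1207 CPM. HSPA1A and HSPA1B are near-identical, and their summed level was 9.27 ± 0.49 CPM in controls and 25.2 ± 2.63 CPM in DMF. The 5 lower genes, named after the fact, were HSPA4L, HSPA8, HSP90AB1, HSF2 and HSPD1, which hold the constitutive HSC70 and HSP90 forms. HSP90AB1 went from 9548 to 7420 CPM.

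In the endoplasmic reticulum, 17 of 30 genes of folding and of the unfolded protein response were higher, and only DERL3, a degradation factor of secretory cells, was lower at -1.91 ± 0.10. HSPA5, the main chaperone of that compartment, had 384, 378 and 352 CPM against 706, 686 and 690.4 CPM. The proteasome had 24 of 35 tested genes higher and none lower by edgeR (none lower at an unadjusted p under 0.05 or by DESeq2, but 1 lower without control replicate 3), with a median of 0.32, and 11 uncalled. The largest rises were those of PSMD2 and ADRM1, at 0.90 ± 0.06 and 0.88 ± 0.07.

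Of 44 autophagy and lysosome genes, 31 were higher and 4 lower, the latter ATG9B, CTSS, OPTN and CALCOCO2. SQSTM1, the cargo receptor p62 that also binds KEAP1, had 284, 315 and 303 CPM in controls and 982, 1043 and 1053 CPM in DMF. GABARAPL1, an ATG8 family protein, rose by 1.87 ± 0.12, and LAMP1 of the lysosomal membrane by 1.23 ± 0.06. Of the zinc and metallothionein genes 12 of 18 were higher and 3 lower, against 30.0% and 29.7% of all genes. Of the selenoprotein genes 9 of 15 were higher and 2 lower. After TPM was centred or without DMF replicate 2 only 5 were higher, a share near that of all genes.

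NF-kB targets fell. Of 45 tested, 28 were lower, 16 of them by at least 2-fold against 5.58% of all genes, and 6 were higher, or 3 without DMF replicate 3. TNFAIP3, the feedback inhibitor A20, had 211, 200.3 and 222 CPM in controls and 41.6, 42.8 and 42.1 CPM in DMF, a log2 fold change of -2.32 ± 0.07 (edgeR adjusted p = 6.48e-14). NFKBIA, the inhibitor IκBα and another NF-kB target, had 115, 124 and 112 CPM against 34.6, 33.2 and 32.9 CPM. BIRC3, an inhibitor of apoptosis, fell by 1.96 ± 0.07, and CD40, a receptor that feeds NF-kB, by 1.82 ± 0.07. In each of these 4 genes every DMF value was below the lowest control, as it was in 31.3% of all genes tested.

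The chemokine CCL22 had 47.0, 49.0 and 50.3 CPM against 3.33, 5.80 and 5.13 CPM, and EBI3, a subunit of interleukins 27 and 35, 129, 148 and 137 CPM against 13.97, 17.2 and 17.97 CPM. Other chemokines of the list did the reverse. CCL3 and CCL4 have near-identical copies, and summed with these they went from 2.12 ± 0.11 to 26.1 ± 3.33 CPM for CCL3 plus CCL3L3 and from 2.45 ± 0.51 to 29.2 ± 0.91 CPM for CCL4 plus CCL4L2. CD83, TNF and TRAF1 were also higher, by 0.76, 0.38 and 0.23 on the log2 scale. IL6 stood near the limit of detection, at 0.811 ± 0.23 CPM in controls and 1.36 ± 0.10 CPM in DMF, and its call (edgeR adjusted p = 0.0277) was not made by DESeq2 (adjusted p = 0.126).

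In the STAT3 loop, 19 of 34 tested genes were lower and 4 higher. PIM1, a survival kinase driven by STAT3 and NF-kB (chromosome 6, 37170203 to 37175426), had 3400, 3443 and 3498 CPM in controls against 1195, 1217 and 1186 CPM in DMF. Its log2 fold change was -1.52 ± 0.05 (edgeR adjusted p = 5.87e-13). SOCS3, the feedback inhibitor of the pathway, had 19.5, 20.7 and 20.7 CPM against 3.33, 2.93 and 2.86 CPM, and IL10 17.98, 17.2 and 17.4 CPM against 5.99, 5.50 and 5.13 CPM. The mRNA of STAT3 itself was nearly level, with a called log2 fold change of -0.21 ± 0.06 on counts that became 0.02 on log2(TPM + 1). The 4 higher genes were LGALS3 (1.87 ± 0.07), IL6, CCND1 and FCGBP, the last of these below 1 CPM in both groups together with CCND1.

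Among survival and growth genes, BCL2L1, the gene of BCL-XL, fell by 1.46 ± 0.07, CFLAR, which blocks death receptors, by 1.03 ± 0.06 and BCL2A1 by 0.64 ± 0.09. BCL2, by contrast, had 567, 487 and 608 CPM in controls and 530.1, 609 and 578 CPM in DMF, groups that overlapped (0.05 ± 0.08). MCL1 fell slightly, by 0.28 ± 0.06, a call that was lost on log2(TPM + 1). BIK, a proapoptotic BH3 protein, had 7.41, 9.15 and 7.74 CPM against 29.9, 28.1 and 26.5 CPM. The apoptosis list as a whole was even, with 14 of 35 higher and 14 lower. On log2(TPM + 1) the split was 18 and 9, and after centring 14 and 13. MYC fell from 349 ± 8.79 to 171 ± 10.7 CPM and the cyclin CCND2 from 968 ± 49.0 to 486 ± 4.35 CPM.

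B cell genes were lower more often than higher, 28 against 9 of 46 tested. CD22, an inhibitory receptor, had 225, 226 and 227 CPM against 71.5, 73.2 and 76.4 CPM. POU2AF1, a coactivator of immunoglobulin genes, fell by 1.40 ± 0.06 and IRF4, a defining factor of this lymphoma, from 768 to 404 CPM. COLCA2, a neighbour of POU2AF1 on chromosome 11 (111298555 to 111308735), had the lowest ratio among genes reaching 5 CPM, with 15.04, 16.01 and 17.8 CPM against 0.333, 0.451 and 0.596 CPM. Its value in the shallow library rests on about 1 count.

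Other B cell genes rose. CD79A, of the B cell receptor, went from 1045 to 1962 CPM and MS4A1, the gene of CD20, from 575 to 950.0 CPM. FCER2, the low-affinity IgE receptor CD23 (chromosome 19, 7688758 to 7702146), had 4.25, 4.67 and 4.57 CPM in controls and 34.2, 30.8 and 31.7 CPM in DMF, and its log2 fold change was 2.81 ± 0.10. Antigen presentation was divided. HLA-B, TAP1 and the immunoproteasome subunit PSMB8 of the class I pathway fell by 1.20, 1.04 and 1.24 on the log2 scale. IFI30, a thiol reductase of antigen processing, rose by 1.71. CIITA, the master regulator of class II, chosen after its value was seen, rose by 0.67. The class II molecules are not given here by name. In the list 17 of 28 genes were lower, 7 of them by at least 2-fold, and 7 higher. Its log2 fold changes ran from -3.02 to 1.71. Genes of the HLA family resemble each other, and reads can be shared among them.

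Other large single changes fell outside these pathways. MAP1A, a microtubule-associated protein best known from neurons (chromosome 15, 43510958 to 43531620), had 0.363, 0.349 and 0.733 CPM in controls and 12.97, 19.1 and 19.4 CPM in DMF, the largest log2 fold change by the naming rule at 5.21 ± 0.20. KCNA3, the potassium channel Kv1.3 of lymphocytes (chromosome 1, 110672465 to 110675033), had 52.8, 43.2 and 60.9 CPM against 4.32, 2.40 and 3.43 CPM. TMPRSS6, a membrane protease that restrains hepcidin in liver (chromosome 22, 37065436 to 37109713), had 91.9, 109 and 106 CPM against 7.32, 6.00 and 5.54 CPM. ADAM8, a metalloprotease, fell by 3.50 ± 0.10, and GAS6, a ligand of TAM receptors, by 3.40 ± 0.17.

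**Figure D3:**
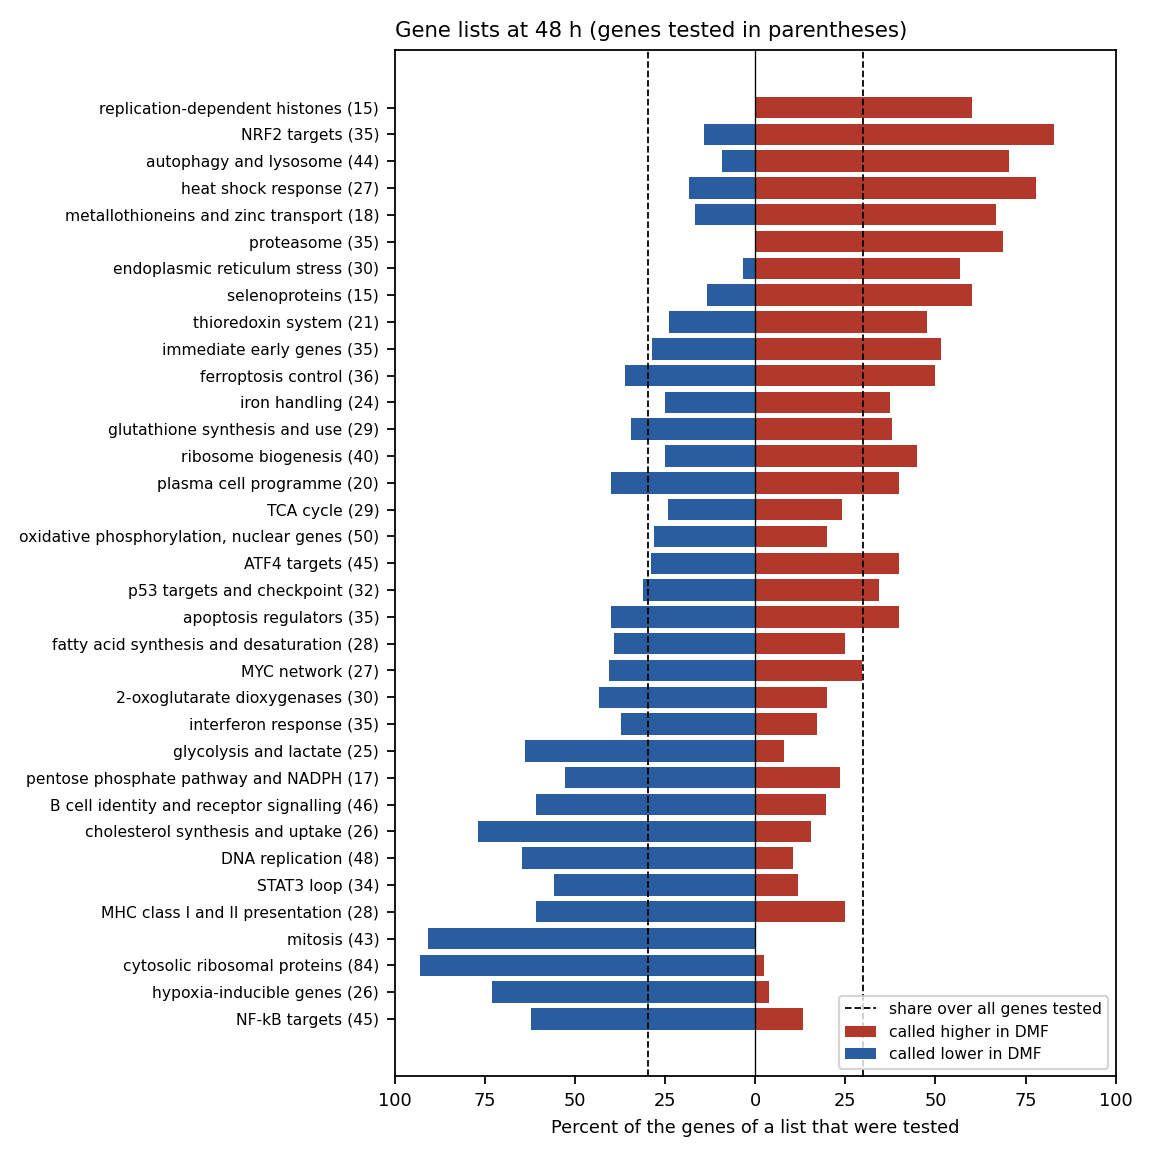
Percent of the tested genes of each list called higher (red, right) or lower (blue, left) in DMF at 48 h, sorted by the median log2 fold change; dashed lines mark the shares over all genes, 30.0% and 29.7%. Among the upper bars the NRF2 list reaches 82.9% higher, and among the lower ones mitosis and cytosolic ribosomal proteins reach 90.7% and 92.9% lower.

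Genes of cell division were lower, mostly by less than 2-fold. In the mitosis list 39 of 43 genes were lower and none higher by edgeR (none higher at an unadjusted p under 0.05 or by DESeq2), with a median of -0.50 and 4 uncalled. BUB1B, a spindle checkpoint kinase, had 206, 188 and 193 CPM against 106, 103 and 103 CPM, and PLK1 fell by 0.75 ± 0.06. MKI67, a proliferation marker, was not called (-0.07 ± 0.08), though without control replicate 2 it was, at -0.18. Of 48 DNA replication genes, 31 were lower and 5 higher (among them POLA2, CCNE1, CCNE2 and CLSPN). On log2(TPM + 1) that list split into 16 lower and 15 higher, and after centring into 31 and 5 again. Without DMF replicate 2 only 3 were higher. LIG1, which joins Okazaki fragments, and CDT1, a licensing factor, fell by 0.99 and 1.04.

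Replication-dependent histone genes that could be tested were higher. Of these 15, 9 were higher and none lower by edgeR (none lower at an unadjusted p under 0.05 or by DESeq2), with a median of 1.85. The median was 0.93 without control replicate 3, where 9 of 20 tested genes were higher and 1 lower, and 0.71 without the low-count filter, where 11 of 50 were higher and 1 lower. On centred log2(TPM + 1) it was 1.03. HIST1H2BK had 8.36, 8.20 and 6.57 CPM against 31.6, 28.4 and 28.8 CPM, and HIST1H2BD rose by 3.04 ± 0.20. Only 15 of the 50 listed genes passed the filter on low counts, which favours those that rose, and the whole class held 0.0065% to 0.0077% of counts in controls and 0.0163% to 0.0194% in DMF. The share of counts on ribosomal RNA genes moved the same way, from 0.728% to 0.793% in controls to 1.287% to 1.448% in DMF, and its part in the histone result was not tested. Copies of histone and ribosomal RNA genes share reads.

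Ribosomal protein genes had the largest share of lower members of any list. Of 84 tested, 78 were lower and 2 higher (RPL7L1 and RPS27L, both paralogs of classical subunits), with a median of -0.63. RPS6 of the small subunit had 3534, 3609 and 3142 CPM against 1923, 1748 and 1873 CPM. The elongation factor EEF1A1 fell from 25560 ± 1139 to 11720 ± 79.0 CPM, and it too has processed copies. Together the ribosomal protein genes took 12.62%, 14.1% and 12.52% of the counts in the controls and 9.12%, 8.88% and 9.1% in DMF. On log2(TPM + 1), 75 of the 84 were still lower. Genes that build ribosomes did not follow, with 18 of 40 higher and 10 lower. NOP2, a ribosomal RNA methyltransferase, rose by 0.67 ± 0.06, and NPM1, nucleophosmin, fell by 0.63 ± 0.06.

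Hypoxia-inducible and glycolytic genes were lower. In the first list 19 of 26 genes were lower and only ADM, the gene of adrenomedullin, was higher. HILPDA, a lipid droplet protein (chromosome 7, 128455849 to 128458418), had 356, 373 and 380.3 CPM in controls and 57.2, 53.8 and 57.7 CPM in DMF, a log2 fold change of -2.73 ± 0.07. CA9, a carbonic anhydrase classically induced in hypoxia (chromosome 9, 35673856 to 35681159), had 67.8, 85.2 and 78.4 CPM against 15.3, 11.1 and 12.7 CPM. Glycolysis had 16 of 25 genes lower and 2 higher (PFKFB3 and SLC16A1). PGK1 fell by 0.60 ± 0.05, and PFKFB4 by 1.59 ± 0.07.

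Cholesterol synthesis and uptake had 20 of 26 genes lower and 4 higher, on log2(TPM + 1) 9 and 5, and after centring 18 and 4. HMGCS1, an early enzyme of the pathway, had 225, 214 and 219.9 CPM against 156, 153 and 151 CPM, and FDPS fell by 1.01 ± 0.06. Among the higher ones were IDI1, TM7SF2 and ABCG1, the last an exporter of cholesterol that rose by 2.53 ± 0.19. For interferon-response genes 13 of 35 were lower and 6 higher on counts, but 6 lower and 9 higher on log2(TPM + 1). After centring 14 were lower and 5 higher, so the turn was seen only on uncentred TPM. IFIH1, the RNA sensor MDA5, fell by 2.25 ± 0.16 while EIF2AK2, the kinase PKR, rose by 0.95 ± 0.09. Genes of the tricarboxylic acid cycle and of oxidative phosphorylation were spread evenly about 0, with medians of 0.04 in both. On log2(TPM + 1), however, 20 of 29 and 31 of 50 were higher and 2 and 5 lower. After centring the splits were 7 higher and 6 lower for the cycle and 8 and 9 for oxidative phosphorylation. Leaving out control replicate 2 turned the split of oxidative phosphorylation genes from 10 higher and 14 lower to 20 and 12.

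ATF4 targets, which respond to amino acid shortage and endoplasmic reticulum stress, were close to the background, with 18 of 45 higher, 13 lower and a median of 0.03. SLC1A4, a neutral amino acid transporter, rose by 0.93 ± 0.07, and MTHFD2 fell by 1.02 ± 0.06. ASNS (-0.16 ± 0.07), DDIT3 (-0.20 ± 0.09) and ATF3 (-0.13 ± 0.11) were not called, and all 3 changed sign on log2(TPM + 1). CHAC1, which degrades glutathione and marks ATF4 activity, had 1.53, 1.40 and 1.82 CPM against 1.995, 3.66 and 2.56 CPM. Its call (edgeR adjusted p = 0.00145) rested on DMF replicate 2, without which the adjusted p was 0.0632.

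The remaining lists were mixed. Of 32 tested p53 and checkpoint genes, 11 were higher and 10 lower, and on log2(TPM + 1) 14 and 8, or 9 and 10 after centring. CDKN1A, the kinase inhibitor p21, had 61.2, 58.1 and 60.1 CPM against 73.5, 74.3 and 81.8 CPM, a log2 fold change of 0.37 ± 0.07. CCNG1, a p53 target, fell by 1.24 ± 0.06, and TIGAR, which diverts glucose to the pentose phosphate pathway, rose by 1.31 ± 0.08. Immediate early genes had 18 of 35 higher and 10 lower, or 10 and 11 after TPM was centred, with DUSP5 up by 1.74 ± 0.08 and SPRY1, an inhibitor of receptor signalling, down at -2.19 ± 0.16.

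Of 20 plasma cell genes, 8 were higher and 8 lower, and on log2(TPM + 1) 10 and 5, or 6 and 8 after centring. PRDM1, the master factor of plasma cells, overlapped between the groups with 3.34, 2.83 and 3.66 CPM against 3.66, 3.47 and 2.92 CPM. Of 27 genes of the MYC network 8 were higher and 11 lower, of 28 fatty acid genes 7 and 11, of 24 iron genes 9 and 6 (8 and 3 without DMF replicate 2 or 3), and of 30 dioxygenases that use 2-oxoglutarate 6 and 13. On log2(TPM + 1) the balance turned in 3 of these lists, to 10 higher and 7 lower for the MYC network, 10 and 4 for fatty acid genes and 10 and 5 for the dioxygenases. After centring the splits were 7 and 10, 6 and 11, and 6 and 14, in the same order. TERT, the telomerase subunit and a MYC target, fell by 1.82 ± 0.10, and KDM4B, a histone demethylase of the last group, by 0.72 ± 0.06.

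The groups did not overlap in CPM for 4017 genes with DMF above (31.0% of those tested) and 4056 genes with DMF below (31.3%). The effect of DMF at 48 h was then set against that at 24 h in one edgeR fit of the 12 libraries, with separate controls at each time. The effect was more positive at 48 h for 2713 of 13186 genes (20.6%) and more negative for 2317 genes (17.6%). Among genes with a called difference and both effects called, the signs were opposite in 580 genes. In those sharing a sign, the effect was larger at 48 h in 1346 genes and smaller in 276. Genes without a called difference are not in these counts. On log2(TPM + 1) the genes more positive and more negative at 48 h numbered 5283 and 862, and after centring 1906 and 2783.

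Several groups differed between the times. Among cytosolic ribosomal proteins 80 of 84 genes were more negative at 48 h, and the median log2 effect was -0.01 at 24 h and -0.61 at 48 h in this fit. Of the hypoxia-inducible genes, 16 of 26 were more negative, with medians of -0.16 and -0.61. ATF4 targets went the other way, with 32 of 45 more positive and medians of -0.56 and 0.05, and so did heat shock genes, with 14 more positive and 1 more negative. For NRF2 targets 17 of 35 were more positive and 3 more negative, with medians of 0.69 and 1.01.

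**Figure D4:**
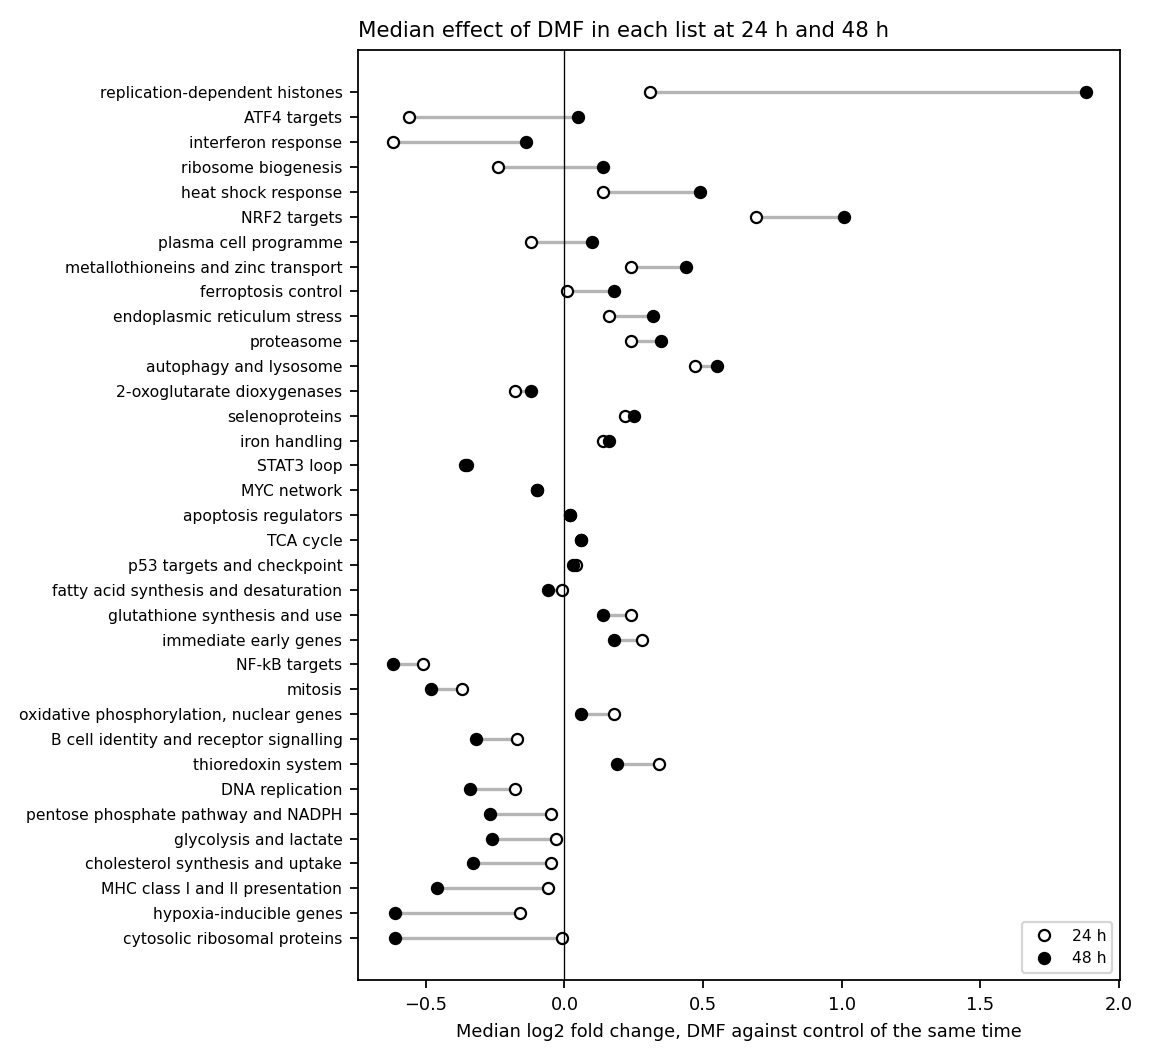
Median log2 fold change of DMF against the control of the same time in each gene list, at 24 h (open) and at 48 h (filled), from one fit of 12 libraries; lists are sorted by the difference. Replication-dependent histones and ATF4 targets lie at the top with higher medians at 48 h, and hypoxia-inducible genes and cytosolic ribosomal proteins at the bottom, both at -0.61 at 48 h. The histone medians rest on the 15 of 50 listed genes that passed the low-count filter at 48 h, which favours those that rose.

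The group levels show which side of the comparison differed between the times. HILPDA stood at 76.2 CPM in controls and 44.2 CPM in DMF at 24 h, and at 364 and 56.1 CPM at 48 h. CA9 stood at 12.2 and 7.29 CPM at 24 h and at 75.9 and 12.99 CPM at 48 h. In both genes the control means differed between the times by more than the DMF means did, and in CA9 the DMF libraries of 48 h (11.01 to 15.34 CPM) also lay above those of 24 h (7.02 to 7.76 CPM). SESN2, a stress-induced brake on mTORC1, stood at 74.0 and 50.2 CPM at 24 h and at 28.5 and 45.6 CPM at 48 h, so that DMF was below control at the first time and above it at the second. EIF2AK2 had the same form, with 62.8 and 51.7 CPM and then 24.2 and 46.6 CPM.

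HSPA5 was close to level at 24 h, with 794 CPM in controls and 886 CPM in DMF, and stood at 365 and 693 CPM at 48 h, where both groups were lower. SLC7A11 differed in both groups, with 9.17 and 5.95 CPM at 24 h and 4.02 and 9.43 CPM at 48 h. GCLC had 126 and 197 CPM at 24 h and 86.5 and 271 CPM at 48 h. GPX4 had 139 and 133 CPM at 24 h and 203 and 136 CPM at 48 h, so its DMF level was nearly the same at both times. Ribosomal protein genes took 9.98% to 10.11% of counts in 24 h controls and 9.83% to 10.57% in 24 h DMF libraries, between the shares of the 2 groups at 48 h.

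Over the 5025 genes with a called difference of effect and a count in all 4 groups, the control means lay further apart between 24 h and 48 h than the DMF means in 3959, which is 78.8%. Over all 13174 genes with counts in the 4 groups, called or not, the share was 66.1%. For the 16 hypoxia-inducible genes with a called difference it was 16 of 16, and for the ATF4 targets 33 of 37. Other lists had it as well, with 19 of 19 p53 and checkpoint genes and 10 of 10 dioxygenases, whereas DNA replication had 11 of 22. These shares describe group means of 3 libraries each and were not tested. Time and any difference in preparation between the time points cannot be told apart in the controls.

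**Figure D5:**
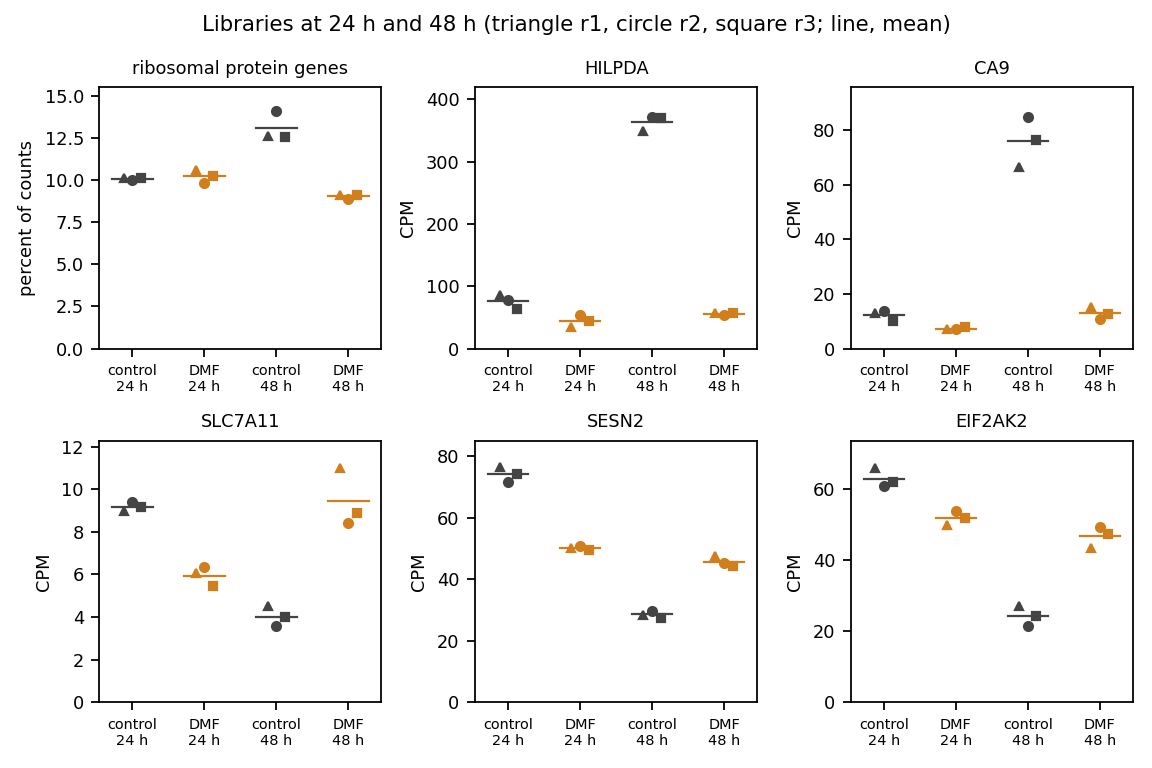
Share of counts on ribosomal protein genes, and CPM of 5 genes, in each control (grey) and DMF (orange) library at 24 h and 48 h; axes are linear and start at 0, and lines are group means. The 48 h controls stand apart from the 24 h controls in all 6 panels, with HILPDA at 364 CPM against 76.2 CPM, while in HILPDA, CA9, SESN2 and EIF2AK2 the DMF groups differ less between the times.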

How the data were processed

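Total RNA (RNeasy kit, Illumina libraries, per the labels' protocols) was counted by the authors. The submitters' processing notes name HISAT2, RSEM and the build GRCh38.p12. Versions, annotation and strand setting are not given in the sources used here. Each deposited table gives, per gene symbol, an expected count (an estimated count that need not be whole), TPM and an effective length in bases, per the file headers.

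Expected counts were rounded and tested with edgeR 4.0.16 in R 4.3.3 (TMM, filterByExpr, quasi-likelihood, Benjamini-Hochberg, 0.05) on the 6 libraries of 48 h alone, with 4 residual degrees of freedom. A 12-library fit tested the difference of effects between 48 h and 24 h. The scripts were tested on simulated data. Alternatives were DESeq2 1.42.0, size-factor scaling, no filter, limma 3.58.1 on log2(TPM + 1), a replicate block, an 18-library fit and leaving out each library. Libraries of 12 h were not used here, and a list of noncoding genes was not analysed here. Some genes of the lists are not reported here by name.

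The comparison, gene lists and gene panel were chosen with earlier results of these data known. Genes were named as the 12 largest changes each way reaching 5 CPM with groups apart, up to 4 called members of each list by p, a fixed panel, the 5 largest TPM gains and losses, and the 6 largest differences of effect each way. Others were chosen after their values were seen, and not each is marked so. Positions are GENCODE genes on GRCh38. Depth ran from 2870751 to 35146994 counts a library, and precision for weak genes is lowest in DMF replicate 1.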

Additional observations from a re-analysis of the deposited data

Results flagged for a closer look

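Results here were picked out because a test of the difference between 2 times passed the edgeR threshold: the effect of DMF at 48 h minus that at 24 h, for 2713 genes more positive and 2317 more negative at 48 h. Among named genes the difference on the log2 scale was 2.16 for MAP1A, 2.04 for APOL6, 2.01 for SLC6A9, 1.94 for IL6, 1.90 for NOXO1, 1.89 for CHAC1, 1.86 for TMEM189-UBE2V1, 1.77 for SLC7A11, 1.26 for EIF2AK2 and 1.22 for SESN2. It was -2.43 for ADD2, -2.19 for CCDC151, -2.00 for COLCA2, -1.92 for HILPDA, -1.90 for CA9, -1.75 for SLC2A3 and -0.692 for PGK1.

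CCDC151 stood at 3.11 CPM in controls and 1.95 CPM in DMF at 24 h and at 19.1 and 2.73 CPM at 48 h. NOXO1, an organiser of NADPH oxidase, stood at 9.08 and 9.91 CPM and then at 1.46 and 5.88 CPM. APOL6 stood at 7.32 and 1.83 CPM and then at 1.82 and 2.39 CPM, and SLC6A9, a glycine transporter, at 14.3 and 4.75 CPM and then at 2.66 and 3.58 CPM. TMEM189-UBE2V1 is a readthrough of 2 genes, and its reads can belong to either.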

How the results depend on the processing

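Of 183 named genes, 182 kept their direction and side of the threshold under DESeq2 size factors and without the low-count filter, where ASNS gained a call. The same number did under DESeq2, where IL6 lost its call. Leaving out single libraries gave 3154 to 4109 genes higher and 3242 to 4225 lower, 618 to 698 and 726 to 792 by at least 2-fold, and 2237 to 2893 and 1872 to 2380 for the difference from 24 h. Same-numbered libraries correlated at 0.06, -0.12 and 0.03 in their deviations from the group means. Differently numbered ones ran from -0.13 to 0.15, so this check cannot decide whether the numbers pair them. A replicate block gave 3710 higher and 3670 lower genes and turned PRDM1, uncalled, to 0.0013.

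TPM moved most counts. On log2(TPM + 1), 1770 genes were lower, 193 of them by at least 2-fold, and the effect was more positive at 48 h in 5283 and more negative in 862. After centring, an alternative chosen after seeing the data, 240 and 364 genes passed 2-fold. In both the pseudocount shrinks low genes, and the share of ribosomal protein counts also differed between the groups. Their part was not tested. Signs that turned on uncentred TPM were those of ASNS (0.11), ATF3 (0.037), DDIT3 (0.044), MKI67 (0.16), PRDM1 (0.12), STAT3 (0.016) and TFRC (0.11), and after centring that of APOL6 (-0.10). Leaving out single libraries, APOL6 ran from -0.074 to 0.332, BCL2 from -0.031 to 0.110 and PRDM1 from -0.126 to 0.092. Among the calls lost on uncentred TPM were those of CD38, CS, MCL1 and MX1. IL6 lost its call without control replicate 1 or 3 or DMF replicate 2 or 3, with adjusted p from 0.0635 to 0.148, and CHAC1 without DMF replicate 2. ASNS and TFRC gained calls under some settings. Depth limits genes near 1 CPM, where DMF replicate 1 holds few counts.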
